A study of Mus musculus with 21 samples.

Results

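The 9 genes examined here encode transcription factors that pattern the arcuate nucleus (ARC) of the hypothalamus, and they were followed through RNA-Seq libraries of AGRP neurons and POMC neurons. They were found by symbol (Otp, Bsx, Nkx2-1, Nkx2-4, Isl1, Tbx3, Prdm12, Nhlh1 and Nhlh2), and all 9 were among the 35266 genes of the count and TPM (relative transcript abundance per length) tables. The set was drawn up with their levels in AGRP and POMC neurons already known, so the difference between these neurons is given below as a description, with no test. Food deprivation was tested.

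The 21 libraries came from 21 male mice on the C57BL/6J background, each library from neurons of 1 mouse sorted by hand. AGRP neurons carried the NPY-hrGFP transgene, so cells were picked by a reporter of Npy and not of Agrp, and POMC neurons carried Pomc-GFP. For AGRP neurons there were 5 mice fed ad libitum (fed) and 6 deprived of food for 24 hr (FD), aged 46 to 55 postnatal days, and for POMC neurons 5 fed and 5 FD mice, aged 51 to 56 postnatal days. A library held 44 to 214 sorted cells and 9822298 to 37663979 gene counts, and 3 counts, taken as the floor of detection, were worth 0.0797 to 0.305 CPM (counts scaled to library size). Fewer cells of a type and less RNA per cell cannot be told apart in such pooled libraries.

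The labelled cell types were checked against their peptides. Agrp and Npy together reached 12064 to 68921 TPM in AGRP libraries and 5.45 to 226 TPM in POMC libraries, and Pomc and Cartpt together 8809 to 37160 TPM in POMC libraries and 114 to 227 TPM in AGRP libraries. Markers of astrocytes, microglia and endothelial cells, 4 genes each, each summed to at most 11.5 TPM in any library. Those of oligodendrocytes reached 47.8 TPM and those of tanycytes 25.7 TPM. The 4 of the pituitary reached 27.9 TPM in AGRP fed, 8.06 TPM in AGRP FD and 4.56 TPM in POMC libraries. Of these, Cga was at 0 in all AGRP libraries, but Tshb averaged 1.61 CPM in AGRP fed and 0.205 CPM in POMC fed libraries. The 8 markers of other arcuate and neighbouring neurons summed to 442 to 2363 TPM in AGRP libraries and 6.67 to 226 TPM in POMC libraries. Nearly all of this in AGRP libraries was Sst, without which the sum was 1.47 to 39.6 TPM in AGRP and 6.09 to 29.7 TPM in POMC libraries, and Kiss1 and Fezf1 were at 0 in all AGRP libraries. The part of such cells in the results below was not tested.

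Neurons of the ARC arise from progenitors of the basal hypothalamus, where homeodomain, T-box and basic helix-loop-helix factors set their fate, and some of these genes stay on in the adult. Nkx2-1, a homeodomain factor, is needed for the ventral hypothalamus to form, and Isl1, a LIM-homeodomain factor, binds enhancers of Pomc. Otp and Bsx are homeodomain factors of peptidergic neurons, and Bsx is known as an activator of Agrp and Npy. Tbx3 is a T-box factor, Prdm12 a PR-domain zinc finger protein known from pain-sensing neurons and needed for Pomc expression, and Nhlh1 and Nhlh2 are closely related basic helix-loop-helix factors, of which Nhlh2 is linked to body weight.

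The sequence just upstream of the start is shown for the 4 genes whose levels differed most between the neurons, Otp on the AGRP side and Nhlh2, Nkx2-1 and Prdm12 on the POMC side. Each is from RefSeq, build GRCm38.p6, 5′ to 3′ on the strand of the gene, and stops before the earliest annotated start of transcription. Capitals mark the homeodomain core TAAT on either strand and the E-box CANNTG, which basic helix-loop-helix factors bind.
Otp (chr13:94875386-94875601, + strand): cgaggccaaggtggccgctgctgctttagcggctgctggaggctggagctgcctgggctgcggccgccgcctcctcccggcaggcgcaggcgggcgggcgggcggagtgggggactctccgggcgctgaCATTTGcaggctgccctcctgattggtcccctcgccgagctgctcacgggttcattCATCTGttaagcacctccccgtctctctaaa
Nhlh2 (chr3:102009895-102010075, + strand): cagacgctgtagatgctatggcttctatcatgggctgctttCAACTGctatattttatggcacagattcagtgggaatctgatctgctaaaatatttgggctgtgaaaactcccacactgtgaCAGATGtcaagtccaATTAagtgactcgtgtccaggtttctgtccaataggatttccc
Nkx2-1 (chr12:56536909-56537158, − strand): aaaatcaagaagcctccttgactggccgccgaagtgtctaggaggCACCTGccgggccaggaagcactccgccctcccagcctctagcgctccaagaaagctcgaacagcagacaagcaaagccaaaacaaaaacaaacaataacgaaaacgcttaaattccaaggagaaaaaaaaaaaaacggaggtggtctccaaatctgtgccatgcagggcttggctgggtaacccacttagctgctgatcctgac
Prdm12 (chr2:31639787-31640036, + strand): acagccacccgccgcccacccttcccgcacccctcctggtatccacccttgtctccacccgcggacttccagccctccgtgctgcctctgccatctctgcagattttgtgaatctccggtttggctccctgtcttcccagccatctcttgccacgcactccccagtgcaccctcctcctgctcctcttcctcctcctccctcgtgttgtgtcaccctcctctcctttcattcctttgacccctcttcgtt

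The Otp stretch of 216 bases held 2 E-boxes and no TAAT, where 61.6% and 52.0% of 32851 promoters held such a match in a window of that length. The Nhlh2 stretch of 181 bases held 2 E-boxes and 1 TAAT (in 55.7% and 47.8% of promoters). The Nkx2-1 stretch of 250 bases held 1 E-box and the Prdm12 stretch of 250 bases held neither (66.2% for the E-box and 54.9% for TAAT). No E-box overlapped a TAAT. A match describes the letters only. GC content ran from 43.6% in Nhlh2 to 69.0% in Otp. Sequences were found for 8 of the 9 genes.

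In fed mice 2 of the 9 factors were higher in every AGRP library than in every POMC library, and 4 were lower in every AGRP library. These counts show how the set was drawn up, and nothing is read from them. Among the 16513 genes tested, 8.93% did not overlap between the groups, 4.38% with AGRP neurons higher and 4.55% with AGRP neurons lower. In FD mice the counts were again 2 and 4, where 11.4% of genes did not overlap (5.94% higher and 5.49% lower), but Tbx3 took the place of Nkx2-4.

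**Figure D1:**
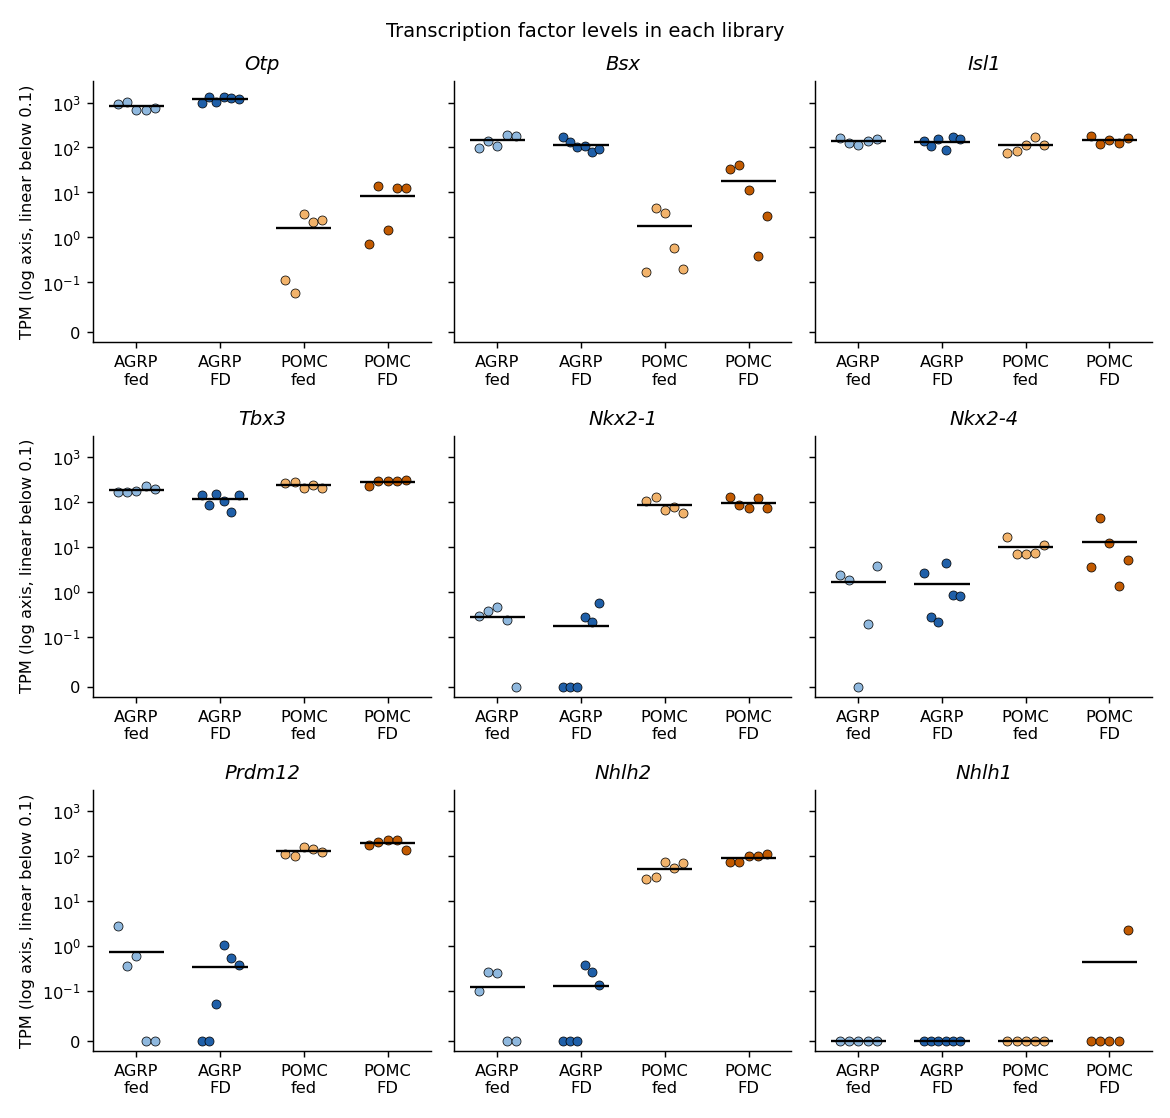
TPM of each factor in every library (points) and the mean of each group (bars), on a log axis that is linear below 0.1 TPM, for 5 AGRP fed, 6 AGRP FD, 5 POMC fed and 5 POMC FD libraries. Otp is above 687 TPM in every AGRP library and under 15 TPM in every POMC library, and Isl1 and Tbx3 are high in all 21.

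The factors were not alike in level. Per transcript length, Otp stood first in AGRP neurons, at 816 ± 155 TPM (SD, n = 5) in fed and 1189.9 ± 156 TPM (n = 6) in FD mice. That placed it 122nd and 72nd from the top of 16513 genes. In AGRP fed libraries Tbx3 (183 ± 25.1 TPM), Bsx (145 ± 43.4 TPM) and Isl1 (139 ± 20.7 TPM) followed, and no neighbours in this order of 3 were separated beyond the range of their libraries. Then came a gap to Nkx2-4 (1.64 ± 1.57 TPM), below which Prdm12, Nkx2-1 and Nhlh2 averaged under 1 TPM and Nhlh1 was at 0. In FD libraries the order after Otp was Isl1 (135 ± 31.4 TPM), Bsx (114 ± 32.3 TPM) and Tbx3 (114 ± 36.3 TPM), again overlapping.

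In POMC fed libraries Tbx3 led with 239 ± 29.7 TPM (n = 5), apart from all others. Prdm12 (130 ± 23.1 TPM), Isl1 (112 ± 38.5 TPM), Nkx2-1 (86.1 ± 28.6 TPM) and Nhlh2 (53.6 ± 20.3 TPM) formed a series in which each overlapped the next. Nkx2-4 stood apart at 9.78 ± 4.17 TPM, and Bsx (1.79 ± 2.06 TPM) and Otp (1.61 ± 1.44 TPM) came last before Nhlh1 at 0. In FD libraries the leading 5 kept this order, at 279 ± 33.1, 196 ± 38.0, 148 ± 25.4, 97.2 ± 28.1 and 93.0 ± 18.4 TPM. Bsx there averaged 17.6 TPM with an SD of 18.0 TPM, so that its libraries ran over Nkx2-4 (13.2 ± 17.3 TPM).

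Otp was the AGRP factor with the widest gap. Values from here on are CPM after TMM normalization, the scale of the tests, which compares 1 gene between libraries. In AGRP fed libraries Otp was at 654, 849, 512, 521 and 569 CPM, and in AGRP FD libraries it ran from 774 to 1395 CPM. In POMC fed libraries it was at 0.111, 0.0741, 2.59, 1.81 and 1.9 CPM, and in POMC FD libraries at 0.586, 11.1, 1.18, 9.63 and 9.79 CPM. All AGRP libraries lay far above all POMC libraries, by 8.89 ± 0.69 (SE) on the log2 scale in fed and 7.41 ± 0.63 in FD mice.

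Bsx had the same side and a smaller gap. It was at 23.4, 37.8, 26.2, 47.3 and 46.5 CPM in AGRP fed libraries and ran from 22.8 to 44.0 CPM in AGRP FD libraries. In POMC fed libraries it was at 0.0553, 1.41, 0.904, 0.159 and 0.0514 CPM. In POMC FD libraries it was at 8.68, 10.4, 3.00, 0.0982 and 0.798 CPM. The log2 difference between AGRP and POMC neurons was 6.05 ± 0.82 in fed and 2.85 ± 0.68 in FD mice, and the groups did not overlap in either.

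Prdm12 was a factor of the POMC side. It was at 105, 90.7, 118, 111 and 91.0 CPM in POMC fed libraries and at 137, 153, 168, 165 and 101 CPM in POMC FD libraries. In AGRP fed libraries it was at 1.92, 0.275, 0.426, 0 and 0 CPM, and in AGRP FD libraries no library passed 1.06 CPM. The difference of AGRP from POMC neurons was -7.56 ± 0.72 in fed and -8.61 ± 0.70 in FD mice on the log2 scale.

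Nhlh2 had nearly the same shape. It was at 40.2, 40.4, 75.7, 55.8 and 72.0 CPM in POMC fed libraries and at 74.6, 72.6, 103, 102 and 114 CPM in POMC FD libraries. The AGRP libraries reached 0.275 CPM in fed and 0.517 CPM in FD mice, and 5 of the 11 were at 0 counts. The log2 difference was -8.86 ± 0.67 in fed and -8.88 ± 0.60 in FD mice. Its relative Nhlh1 had 23 counts in 1 library, POMC FD replicate 5, and 0 counts in the other 20, so it did not pass the filter on low counts and was not tested.

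Nkx2-1 was at 110.3, 127, 57.5, 66.3 and 47.7 CPM in POMC fed libraries and at 113, 70.2, 62.2, 104 and 63.2 CPM in POMC FD libraries. No AGRP library passed 0.521 CPM. The log2 difference was -8.50 ± 0.62 in fed and -8.84 ± 0.58 in FD mice. Nkx2-4, from the same homeodomain family, was low even where it was found. It was at 10.7, 4.3, 3.62, 3.82 and 5.65 CPM in POMC fed libraries and at 1.92, 22, 6.43, 0.688 and 2.68 CPM in POMC FD libraries, which makes it the least even of the POMC factors. AGRP libraries ran from 0 to 2.98 CPM, and in FD mice the 2 groups overlapped.

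Isl1 and Tbx3 were shared. Isl1 was at 111, 95.5, 79.7, 99.3 and 113 CPM in AGRP fed and at 70.0, 73.2, 86.4, 133 and 86.0 CPM in POMC fed libraries, a log2 difference of 0.15 ± 0.19 with overlap. In FD mice the log2 difference was 0.03 ± 0.19. Tbx3 was at 231, 261, 253, 324 and 290.3 CPM in AGRP fed and at 510.0, 502, 328, 384 and 323 CPM in POMC fed libraries, a log2 difference of -0.59 ± 0.19, and the highest AGRP library lay just above the lowest POMC library. In FD mice the log2 difference was -1.13 ± 0.18, and the libraries did not overlap.

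Food deprivation was the first tested comparison, within each cell type, over all 16513 genes with edgeR's quasi-likelihood test. In AGRP neurons 0 of the 8 tested factors passed an adjusted p of 0.05, where 10.3% of all genes did. Nkx2-1, Prdm12 and Nhlh2 passed the filter on low counts through the POMC libraries and were near 0 in AGRP neurons, so that a call there could only be looked for in the other 5. At an unadjusted p under 0.05 there was 1, limma-voom called 1 and DESeq2 0.

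In AGRP neurons Otp averaged 1084 CPM in FD and 621 CPM in fed mice, a log2 fold change of 0.80 ± 0.46 (SE), adjusted p = 0.325. Only the lowest FD library, at 774 CPM, lay below the highest fed library, at 849 CPM, and 5 of 6 FD libraries lay above all fed ones. The call turned on the model. The adjusted p was 0.000194 in limma-voom and 0.00289 in edgeR fitted to the AGRP libraries alone, with nearly the same fold change (0.84 and 0.80). Within the mice of 46 to 47 postnatal days the log2 fold change was 0.82 (adjusted p = 0.171), and within those of 51 to 55 days 0.80 (adjusted p = 0.0127).

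Tbx3 averaged 198 CPM in AGRP FD and 272 CPM in AGRP fed libraries, with FD values of 106 to 260 CPM and fed values of 231 to 324 CPM. The log2 fold change was -0.46 ± 0.18, with an unadjusted p of 0.0155 and an adjusted p of 0.107. No alternative fit or left-out library brought it past the threshold. Its lowest adjusted p was 0.0557, without AGRP FD replicate 3.

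Bsx and Isl1 gave log2 fold changes of -0.11 ± 0.62 and 0.19 ± 0.19 in AGRP neurons (adjusted p = 0.951 and 0.610). The other 4 were near the floor there, so that their fold changes, -0.56 to 0.69, rest on few counts.

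In POMC neurons 0 of the 8 factors passed, where 0.375% of all genes did (0.182% higher and 0.194% lower). At an unadjusted p under 0.05 there were 2, Bsx and Otp, DESeq2 called 1, Bsx, and limma-voom 0. Both are the factors of the AGRP side. Bsx averaged 4.6 CPM in FD and 0.515 CPM in fed libraries, a log2 fold change of 3.09 ± 0.73 (adjusted p = 0.0504). Otp averaged 6.46 CPM in FD and 1.3 CPM in fed libraries, a log2 fold change of 2.28 ± 0.57 (adjusted p = 0.0659). Either value stood at the edge of the threshold, and which side it fell on changed with the fit and with single libraries. For Bsx the adjusted p ran from 0.0110 to 0.363 over 9 alternatives and for Otp from 0.00730 to 0.525.

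**Figure D2:**
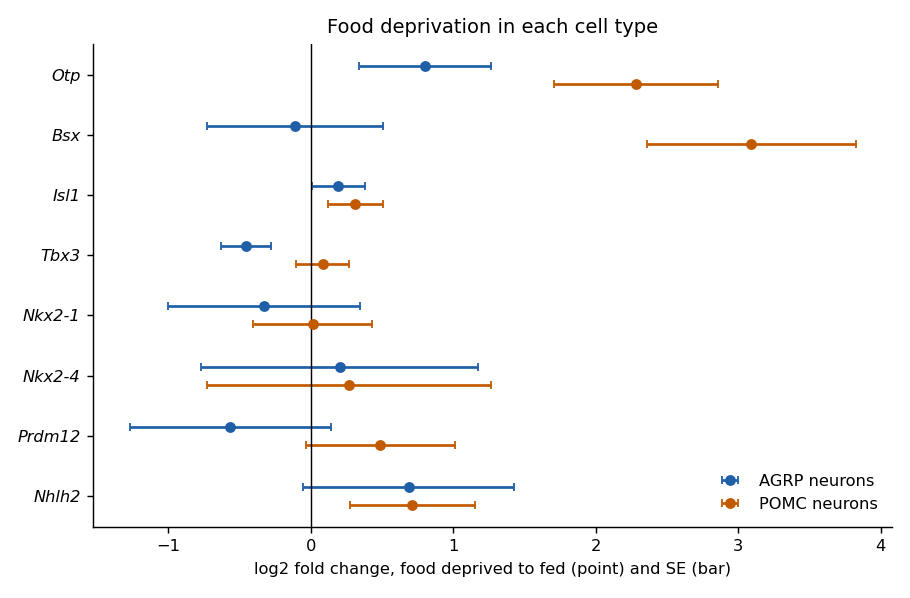
Log2 fold change from fed to FD mice (points) with its SE (bars) for the 8 tested factors, in AGRP and in POMC neurons. Bsx at 3.09 and Otp at 2.28 in POMC neurons lie farthest from 0, and none of the 16 values passed an adjusted p of 0.05.

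Both genes were highest in POMC FD replicate 2, and the other POMC libraries where they were high differed in part. Bsx was above 1 CPM in POMC FD replicates 1, 2 and 3 and in fed replicate 2. Otp was above 1 CPM in POMC FD replicates 2, 3, 4 and 5 and in fed replicates 3, 4 and 5. FD replicates 2 and 3 were thus shared at that cut. Only in FD replicates 2, 4 and 5 was Otp above 9 CPM. In counts, Bsx had 163, 218, 71, 1 and 11 reads and Otp 11, 233, 28, 98 and 135 reads in the 5 FD libraries. The FD replicates 1 to 3 had received 1 µl of spike-in and replicates 4 and 5 had received 10 µl. Among the 3 fed and 3 FD libraries with 1 µl, the log2 fold change of Bsx was 4.26 (adjusted p = 0.344) and that of Otp 1.03 (adjusted p = 0.914).

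AGRP peptide transcripts were present at low levels in the same libraries, at 1.52 to 9.45 CPM of Agrp in POMC fed and 4.15 to 17.0 CPM in POMC FD libraries. Npy was at 0.221, 0.0370, 5.11, 7.75 and 15.7 CPM in POMC fed libraries. In POMC FD libraries Npy was at 4.42, 7.12, 3.43, 26.2 and 25.2 CPM. Like Bsx and Otp, both peptide genes averaged more in FD mice. In edgeR the log2 fold change was 1.50 ± 0.42 for Agrp and 1.19 ± 0.63 for Npy (adjusted p = 0.102 and 0.469). In AGRP FD libraries Bsx stood to Agrp at 0.00538 to 0.0330. In POMC FD replicates 1, 2 and 3 the ratio was 2.09, 2.06 and 0.227, above that range, in replicate 5 it was 0.0470, also above it, and in replicate 4 it was 0.00592, within it. In AGRP fed libraries the ratio was 0.0289 to 0.101. In POMC fed replicates 2 and 3 it was 0.927 and 0.307, above that range, in replicate 4 it was 0.0556, within it, and in replicates 1 and 5 it was 0.0182 and 0.00543, below it. The fed replicates 1, 4 and 5 held 3 counts of Bsx or fewer.

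For Otp the ratio to Agrp was 0.219 to 0.581 in AGRP FD libraries. It was 0.580 and 0.577 in POMC FD replicates 4 and 5, inside that range, 0.141 and 0.0895 in replicates 1 and 3, below it, and 2.20 in replicate 2, above it. In AGRP fed libraries the ratio was 0.648 to 1.11. In POMC fed replicate 3 it was 0.880, inside that range. It was 0.0364, 0.0488, 0.630 and 0.201 in fed replicates 1, 2, 4 and 5, below it. Ratios of these transcripts in 1 library of amplified RNA carry the spread of both, and the part of RNA from other cells in these values was not tested further.

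**Figure D3:**
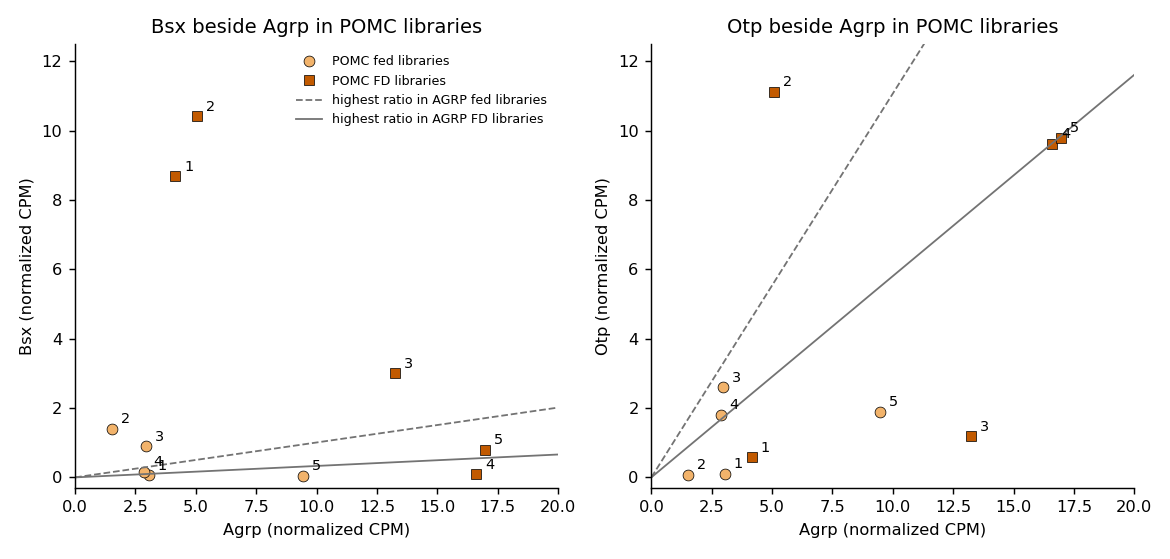
Bsx (left) and Otp (right) against Agrp in the 10 POMC libraries, all in normalized CPM and numbered by replicate, with lines at the highest ratio to Agrp found in AGRP fed (dashed) and AGRP FD (solid) libraries. For Bsx, FD replicates 1, 2 and 3 and fed replicates 2 and 3 lie above both lines, and for Otp only FD replicate 2 does.

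None of the POMC factors passed in POMC neurons with edgeR. The log2 fold change was 0.71 ± 0.44 for Nhlh2 (adjusted p = 0.548), 0.49 ± 0.52 for Prdm12 (adjusted p = 0.787), 0.01 ± 0.42 for Nkx2-1 (adjusted p = 0.996) and 0.27 ± 1.00 for Nkx2-4 (adjusted p = 0.959). For Nhlh2, 3 of 5 FD libraries lay above all fed libraries. For Prdm12, FD replicates 1, 2, 3 and 4, at 137, 153, 168 and 165 CPM, lay above the highest fed library, at 118 CPM. Isl1 gave 0.31 ± 0.19 (adjusted p = 0.554) and Tbx3 0.08 ± 0.19 (adjusted p = 0.917). These 6 turn negative, -0.30 to -1.36, under scaling by spike-in, which moves the median of all genes to -1.11.

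The difference between the 2 responses to deprivation was tested by the interaction of cell type and deprivation. One of the 8 factors, Bsx, passed, where 6.71% of all genes did. Nkx2-1, Prdm12 and Nhlh2 passed the filter on low counts through the POMC libraries and were near 0 in AGRP neurons. Their interaction rests on few counts there, so that a call for them could hardly be looked for. The log2 fold change of Bsx was 3.20 ± 0.94 lower in AGRP than in POMC neurons (adjusted p = 0.0354). The adjusted p was 0.132 in limma-voom, 0.0720 without POMC FD replicate 1 and 0.0900 without POMC FD replicate 2. Otp and Tbx3 gave -1.48 ± 0.73 and -0.54 ± 0.26 (adjusted p = 0.252 and 0.236).

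The genes around the factors were examined because reads were counted without strand, so that reads of a gene and of an antisense partner cannot be told apart where they overlap. Overlaps below are of whole gene extents, introns included, and how far they enter the counts was not tested. Within 20000 bases, Otp and Nhlh2 had no annotated neighbour. Prdm12 (chr2, + strand) shares 553 bases at its start with the antisense gene Gm13425, which covers all 250 bases of the Prdm12 stretch printed above. Gm13425 was at 13.0, 16.2, 22.3, 11 and 19.7 CPM in POMC fed libraries and at 17.1, 22, 23.5, 25.1 and 15.7 CPM in POMC FD libraries, with at most 1 count in any AGRP library. Its fed POMC mean was at least 104-fold higher than the floor of 3 counts per library in AGRP fed mice, and its FD mean at least 125-fold higher.

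Nkx2-1 (chr12, − strand) shares 1566 bases with the antisense gene Gm26973, which covers the whole printed Nkx2-1 stretch. Gm26973 had 0 counts in all 11 AGRP libraries and 2 to 119 counts in the POMC libraries. Tbx3 (chr5, + strand) shares 697 bases with Tbx3os1, at 1.21 CPM in AGRP fed and 3.62 CPM in POMC fed libraries, and lies 370 bases from Tbx3os2, at 21 and 42.7 CPM.

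**Figure D4:**
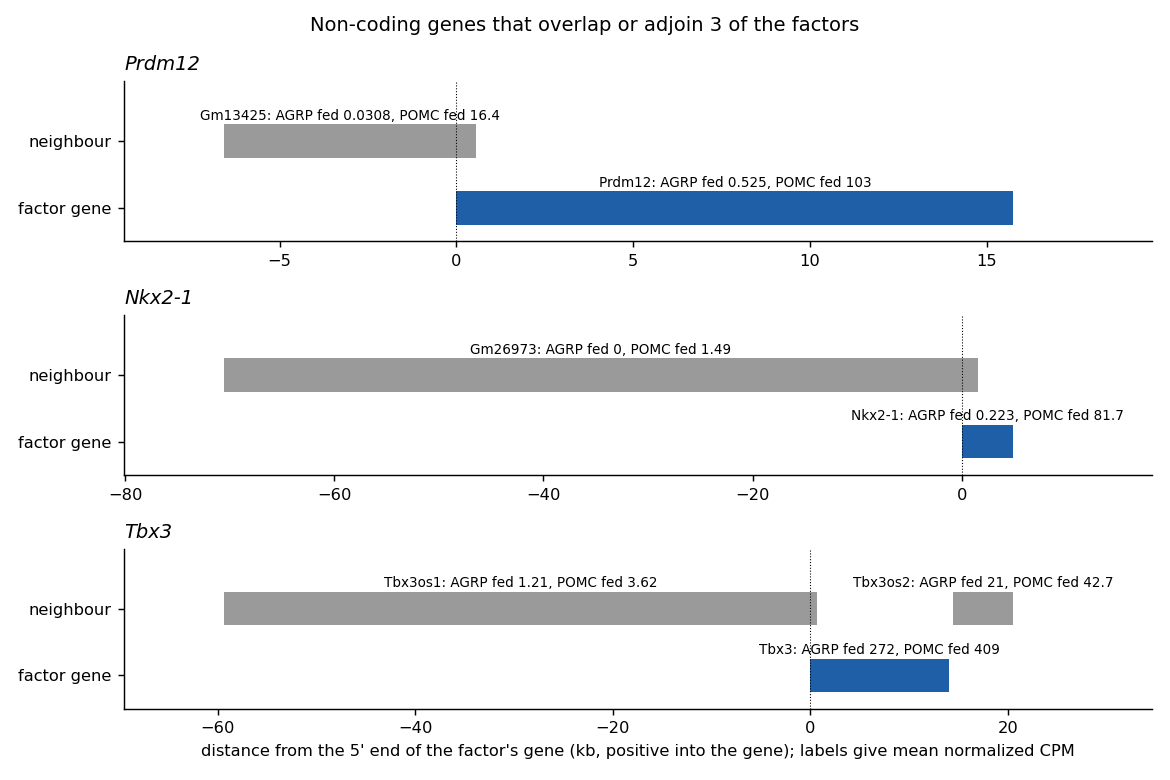
Extent of 3 factor genes (lower bars) and of the non-coding genes that overlap or adjoin them (upper bars), in kb from the 5′ end of the factor gene, with the mean normalized CPM of fed libraries beside each. Gm13425 and Gm26973 reach across the start of Prdm12 and Nkx2-1 and are at 0.0308 and 0 CPM in AGRP fed libraries.

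The genes whose profile over the 21 libraries lay closest to that of each factor were found by the root mean square difference of log2 values after removing the mean of each gene, with 16512 genes compared. Groups of 2 cell types dominate such profiles, and nothing is read from likeness beyond its size. For Otp the nearest were Npy (0.95), Agrp (0.98) and the calcitonin receptor gene Calcr (1.03), beside a root mean square of 4.3 for the profile of Otp itself. Nhlh2 was nearest to Prdm12 (0.55), and each of Nkx2-1, Prdm12 and Nhlh2 had the other two among its nearest 3. The remaining places went to Cckar (a cholecystokinin receptor) for Nkx2-1 (0.52) and Prdm12 (0.73), and to Prokr1 (a prokineticin receptor) for Nhlh2 (0.65). For Bsx the nearest was Glra2 (0.86), for Isl1 Pde4dip (0.21), for Tbx3 Pcbd1 (0.27) and for Nkx2-4 Gm26973 (0.79), the neighbour of Nkx2-1.

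Other factors of hypothalamic development gave a frame. Of a list of 44, 27 averaged under 1 TPM in every group, 16 passed the filter and 9 reached 10 TPM in at least 1 group. Prox1, at 197 ± 31.7 TPM in AGRP fed and 96.9 ± 28.3 TPM in POMC fed libraries, was the only one of the 16 higher in every AGRP library, in fed and in FD mice, where 4.38% and 5.94% of all genes were. In fed mice 7 of the 16 were lower in every AGRP library (4.55% of all genes), and in FD mice 9 (5.49%). The list was chosen with earlier results of these data known. Sox3, Neurod1 and Onecut3, at 0.0213, 0.111 and 0 CPM in AGRP fed libraries, passed the filter on low counts through the POMC libraries. Nothing is read from these counts of factors without overlap. Six3, a homeodomain factor of the forebrain, was at 27.7 ± 11.6 TPM in AGRP fed and 115 ± 41.6 TPM in POMC fed libraries, and the SOX factors Sox1, Sox2 and Sox3 were likewise lower in AGRP than in POMC neurons without overlap, in fed and in FD mice. In AGRP neurons deprivation lowered 1 of the 16, Sox2, by 3.44 ± 0.82 on the log2 scale from 1.41 to 0.130 CPM (adjusted p = 0.00558), and raised 0, where 4.43% of all genes fell and 5.87% rose. Its libraries overlapped, at 0.0458, 2.97, 2.74, 0.0474 and 1.23 CPM in fed and 0 to 0.447 CPM in FD mice. The call was lost in limma-voom, in the AGRP libraries alone and under spike-in scaling (adjusted p up to 0.254). In either age cohort alone Sox2 did not pass the filter on low counts and was not tested. No other factor of the list was called there. The list's median log2 fold change was -0.29, where that of all genes tested was -0.023. In POMC neurons 0 of the 16 passed with edgeR (2 at an unadjusted p under 0.05). Of 14 close paralogs of the factors 12 averaged under 1 TPM in every group and only Tal2 was tested, which did not pass.

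Partner proteins and cofactors were measured more fully, with all 13 listed genes tested. In AGRP neurons 2 rose with deprivation and 2 fell (5.87% and 4.43% of all genes). Foxo1, a forkhead factor restrained by insulin, rose by 1.16 ± 0.27 on the log2 scale (adjusted p = 0.00511) and Tcf12, an E-protein that pairs with other basic helix-loop-helix factors, by 0.94 ± 0.25 (adjusted p = 0.0139). Lmo3, a LIM-only protein, fell by 2.60 ± 0.31 (adjusted p = 1.53e-06) and Ldb2, which links LIM-homeodomain factors, fell by 1.69 ± 0.26 (adjusted p = 5.54e-05). These 4 calls were lost under spike-in scaling and in the mice of 46 to 47 postnatal days. That of Tcf12 was also lost in those of 51 to 55 days and without AGRP fed replicate 3 (adjusted p = 0.0540). Each age cohort holds fewer libraries than the full fit, so the losses there are not read as an effect of age. Spike-in counts per µl ran from 12408 to 851446 over the AGRP libraries. In POMC neurons 1 fell (0.194% of all genes) and 0 rose (0.182%). It was Stat3, the factor activated by leptin signaling, which fell by 1.38 ± 0.21 (adjusted p = 0.000504), a call lost under spike-in scaling and among the libraries with 1 µl of spike-in. The interaction passed for 3 of the 13 (6.71% of all genes), Lmo3 (-3.82 ± 0.45), Ldb2 (-1.50 ± 0.38) and Stat3 (1.80 ± 0.29). These 3 calls were lost under spike-in scaling (adjusted p = 0.415, 0.912 and 0.299).

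Of 8 genes reported as targets 7 were tested. In AGRP neurons 3 rose and 0 fell (5.87% and 4.43% of all genes). Agrp rose by 2.08 ± 0.39 (adjusted p = 0.000531), and Pcsk1 and Pcsk2, proprotein convertases, rose by 1.69 ± 0.23 and 0.66 ± 0.18 (adjusted p = 6.52e-06 and 0.0134). The 3 calls were lost under spike-in scaling and in the mice of 46 to 47 postnatal days, a cohort with fewer libraries than the full fit. That of Pcsk2 was also lost without AGRP fed replicate 2 (adjusted p = 0.0540). Npy, at 7015 CPM in FD and 2098 CPM in fed AGRP libraries without overlap, had a log2 fold change of 1.74 ± 0.59 (adjusted p = 0.0558). That p lies just above the threshold, and the paper, which used limma-voom, reports Npy as upregulated. In POMC neurons 1 passed with a lower value in FD mice (0.194% of all genes) and 0 with a higher one (0.182%). It was Cartpt, with a log2 fold change of -1.69 ± 0.36 (adjusted p = 0.0233). It was at 4460, 4348, 814, 779 and 1140 CPM in POMC fed libraries and at 436, 804, 573, 1016 and 739 CPM in POMC FD libraries. The 2 high fed libraries were those of the mice of 51 postnatal days, and the other 3 overlapped the FD libraries. Without these 2 mice, left out after seeing the data, the log2 fold change was -0.35 ± 0.24 (adjusted p = 0.712). The call was also lost without either of them alone or without POMC FD replicates 1, 3 or 5 (adjusted p up to 0.113), in limma-voom, in the POMC libraries alone, with a block for replicate number, under spike-in scaling and among the libraries with 1 µl of spike-in. The interaction passed for 2 of the 7 (6.71% of all genes), Cartpt (2.1 ± 0.50) and Pcsk1 (1.58 ± 0.32), and that of Cartpt was 0.76 ± 0.31 without the 2 mice (adjusted p = 0.180). These 2 calls were lost under spike-in scaling (adjusted p = 0.0646 and 0.428), and that of Cartpt also in limma-voom (adjusted p = 0.358).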

How the data were processed

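RNA was measured in 21 libraries of hand-sorted neurons, each from 1 mouse, amplified with NuGEN Ovation. Per the labels and the methods, the authors trimmed reads with cutadapt 1.7.1, filtered them with Bowtie2 2.1.0, mapped them to mm10 with STAR 2.4.0i and counted them without strand with HTSeq 0.6.1p1. The deposited counts are whole reads per gene without normalization, and the deposited TPM were made by the authors from these counts and summed exon length. Between 24.2% and 52.1% of each library's reads fell in no gene and stayed out of totals and tests.

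Genes with CPM over 1 in at least 3 libraries were kept (16513) and fitted in edgeR 4.0.16 (TMM, quasi-likelihood, 4 groups, all libraries, two-sided) with Benjamini-Hochberg adjustment over all genes. A gene was called at an adjusted p under 0.05. Nearest profiles used log2 of CPM plus 0.5. Alternatives were limma-voom, DESeq2, RLE, no filter, the compared groups alone, the replicate block, age cohorts, cell number, spike-in scaling, the study's criteria and each library left out. The spike-in set, the fit without the POMC fed mice of 51 postnatal days and the count of calls within age cohorts were added after seeing the data. The named genes were every factor, the called genes of the lists with the largest changes, and the 3 nearest profiles. The members and lists were chosen with earlier results of these data known. Code was tested on simulated data. Counting error understates the error of amplified reads without molecular identifiers.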

Additional observations from a re-analysis of the deposited data

Results flagged for a closer look

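In 6 of the 33 sets of libraries with a spread, a library lay far from the others of its group by Dixon's criterion. Chance meets it in about 1 set in 20 where values are normally distributed, which CPM near 0 are not. A set with a single library above 0, such as Nhlh1, always meets it, so no excess is read from the 6. In POMC fed libraries these were Nkx2-4 in replicate 1, at 10.7 CPM beside 5.65 CPM in the next library, and Isl1 in replicate 4, at 133 CPM beside 86.4 CPM. In POMC FD libraries they were Nkx2-4 in replicate 2, at 22 CPM beside 6.43 CPM, Tbx3 in replicate 1, at 351 CPM below 444 CPM, and Nhlh1 in replicate 5, at 1.67 CPM (23 counts) beside 0. In AGRP fed libraries it was Prdm12 in replicate 1, at 1.92 CPM (42 counts) beside 0.426 CPM.

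The response of Bsx to deprivation differed between the cell types in the interaction test, by -3.20 on the log2 scale (adjusted p = 0.0354 in edgeR), and its high libraries were POMC FD replicates 1, 2 and 3. The adjusted p was 0.132 in limma-voom and 0.508 under spike-in scaling, and the call was lost in 9 of 21 fits that left out 1 library. Of the 5 POMC fed libraries, 3 held 3 counts of Bsx or fewer.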

How the results depend on the processing

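The counts of factors without overlap between AGRP and POMC neurons stayed between 4 and 7 under every scaling and with each library left out. In AGRP neurons the count of factors called with deprivation was 0 and became 1, Otp, in limma-voom, in the AGRP libraries alone and in the cohort of 51 to 55 days. In POMC neurons it was 0 and became 1, Bsx, in DESeq2, under RLE normalization and with age cohort as a block, and 2, Bsx and Otp, without the filter. Leaving out 1 library gave 0 to 2. Bsx passed without POMC fed replicate 2 (adjusted p = 0.0240), fed replicate 3 (0.0479), FD replicate 4 (0.0109) or FD replicate 5 (0.0278), and Otp without POMC fed replicate 3 (0.0396), FD replicate 1 (0.0148) or FD replicate 3 (0.0318). The count for the interaction was 1, Bsx, and became 0 in limma-voom and under spike-in (ERCC) scaling. Left-out libraries gave 0 to 1, and Bsx lost its call (adjusted p of 0.0519 to 0.0900) without AGRP fed replicates 2, 4 or 5, AGRP FD replicate 5, POMC fed replicates 1, 4 or 5, or POMC FD replicates 1 or 2. Among the 16 developmental factors in AGRP neurons the count was 1, Sox2. It was 0 in limma-voom, in the AGRP libraries alone and under spike-in scaling, and 2 with age cohort as a block or cell number as a covariate. The count was also 0 in either age cohort alone, where Sox2 did not pass the filter and was not tested. It ran from 1 to 2 with left-out libraries, with 2 without AGRP fed replicates 1 or 2 or AGRP FD replicate 2.

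Directions turned for values that were not called. Under spike-in scaling the log2 fold change in POMC neurons was -1.36 for Nkx2-1, -0.59 for Nkx2-4, -0.67 for Isl1, -1.15 for Tbx3, -0.53 for Prdm12 and -0.30 for Nhlh2, and that of Nkx2-4 in AGRP neurons was -0.91. For the interaction it was 0.28 for Nkx2-1, 0.77 for Isl1, 0.73 for Tbx3 and 0.49 for Nhlh2. Spike-in scaling moved the median of all genes in POMC neurons from -0.02 to -1.11. Nkx2-4 turned in limma-voom to -0.26 in POMC neurons and to 0.90 in the interaction, and there also to 0.77 with cell number as a covariate, and Nhlh2 turned to 0.0691 in the interaction with age cohort as a block. Without the 2 POMC fed mice of 51 postnatal days the interaction was 0.061 for Isl1 and 0.23 for Nhlh2, and the members' counts of calls stayed at 0 in POMC neurons and 1 in the interaction. With each library left out, the log2 fold change in AGRP neurons ran from -0.23 to 0.0039 for Bsx, -0.65 to 0.77 for Nkx2-4, -1.68 to 1.11 for Prdm12 and -0.29 to 1.23 for Nhlh2. In POMC neurons it ran from -0.13 to 0.24 for Nkx2-1 and -0.92 to 0.63 for Nkx2-4, and in the interaction from -0.92 to 1.11 for Nkx2-4, -2.17 to 0.62 for Prdm12 and -1.001 to 0.51 for Nhlh2. The cause of these changes was not tested.

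Same-numbered replicates were not paired. The correlation of their deviations from the group means ran from -0.158 to 0.055 over 10 pairs, and no library correlated best with its own number. With the replicate block the counts of calls were 0, 0 and 1 for AGRP neurons, POMC neurons and the interaction, and 1 developmental factor was called in AGRP neurons. The interaction of Nkx2-4 turned to 0.28 with the block. Depth limits the factors near the floor of 3 counts, where log2 fold changes rest on few reads.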
